A study of Mus musculus with 2 samples.

Results

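Deubiquitinases are the proteases that take ubiquitin off other proteins, and 75 of their genes were examined for NRF1 occupancy in mouse skeletal muscle. They were taken by gene symbol from the 21000 protein-coding genes with a known coding RefSeq transcript. The rule takes Usp, Uchl, Otud and Otub symbols together with Bap1, Cyld, Stambp, Stambpl1 and Brcc3. It also takes Usp6nl, whose product is a GTPase-activating protein for Rab proteins and no protease, and leaving it out changes no count of peaks.

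NRF1, nuclear respiratory factor 1, was profiled by chromatin immunoprecipitation followed by sequencing (ChIP-seq), in which an antibody recovers a protein together with the DNA it occupies. The labels give 2 libraries, both from wild-type skeletal muscle and both with the NRF1 antibody, and no treatment, time, strain or age. The mice were males of a C57Bl/6J background, and the wild-type mice behind the NRF1 sites were 9 weeks old by the study's supplement. The study's reporting form instead calls replicate 2 an input library, which conflicts with its label. A single list of 3226 peaks was analysed, with every peak named after the library of replicate 1, so no value has a replicate and no condition is compared. The study reports fewer NRF1 sites than this list holds, and the reason is not known here. A peak list holds no expression values, so the tissue could not be checked against its marker genes. Whole muscle holds several cell types, and the list does not tell in which of them a site was occupied.

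NRF1 binds as a dimer to a palindrome rich in CpG and is best known for genes of the respiratory chain and of mitochondrial maintenance. It is not NFE2L1, the activator of proteasome genes that shares the abbreviation. Ubiquitin marks proteins for the proteasome or for sorting, and deubiquitinases edit or remove the mark and recycle ubiquitin. Ubiquitin-specific proteases, ubiquitin C-terminal hydrolases and OTU proteases cut with a catalytic cysteine, and JAMM proteases with a zinc ion. In muscle, several of these enzymes are known from work on atrophy, where proteins are degraded through ubiquitin.

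The palindrome searched was GCGCATGCGC, which reads the same on both strands, with at most 1 mismatch. A motif copy in the text below is such a match within 100 bp of a peak summit. The sequences below are read on the strand of the gene from 5′ to 3′, 61 bases each, from the RefSeq genome of the mm10 build. Capitals mark motif copies. Windows were taken for the 8 promoter peaks of highest and the 3 of lowest fold enrichment among deubiquitinases, less those of Usp45 and Usp12, in which more than 30 bases lie after the start used. The Usp37 window lies before the start used and in an intron of a longer Usp37 transcript. The first 4 have a motif copy, on which they are centred, and show how it varies.
Usp37, chr1:74506024-74506084, minus strand: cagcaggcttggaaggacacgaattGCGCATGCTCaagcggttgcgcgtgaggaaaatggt
Usp38, chr8:81015070-81015130, minus strand: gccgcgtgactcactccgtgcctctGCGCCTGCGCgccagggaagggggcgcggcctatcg
Usp5, chr6:124829464-124829524, minus strand: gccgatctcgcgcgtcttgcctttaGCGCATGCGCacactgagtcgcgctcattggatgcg
Usp48, chr4:137594079-137594139, plus strand: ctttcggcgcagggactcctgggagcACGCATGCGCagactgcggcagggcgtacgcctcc

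The other 5 have no motif copy and are centred on the summit. Usp8 and Otud1 belong to the strongest peaks, and Otud3, Usp42 and Usp34 are the weakest, which show GC-rich sequence without the palindrome.
Usp8, chr2:126707219-126707279, plus strand: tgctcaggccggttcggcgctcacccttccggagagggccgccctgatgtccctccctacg
Otud1, chr2:19657549-19657609, plus strand: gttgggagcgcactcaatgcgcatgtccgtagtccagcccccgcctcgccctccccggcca
Otud3, chr4:138913961-138914021, minus strand: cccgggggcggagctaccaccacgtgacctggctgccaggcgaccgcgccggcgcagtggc
Usp42, chr5:143732437-143732497, minus strand: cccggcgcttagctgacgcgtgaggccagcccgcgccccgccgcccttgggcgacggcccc
Usp34, chr11:23306480-23306540, plus strand: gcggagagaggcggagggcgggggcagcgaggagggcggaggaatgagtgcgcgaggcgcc

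A promoter peak was a peak with its summit from 1000 bp before to 100 bp after a coding start. Such a peak was found at 22 of the 75 genes. Their share was 29.3%, with a Wilson 95% interval of 20.2 to 40.4%, and over all protein-coding genes it was 13.4%. These 22 genes held 23 promoter peaks, since Otud5 had 2. Intervals cover counting error over genes or peaks only, and paralogous genes are not independent. The members were chosen with earlier results of these data known, so the share is a description and was not tested. Ubiquitin-specific proteases, counted with Cyld and with Usp6nl, which is no protease, had a promoter peak in 16 of 57 genes (18.1 to 40.8%). OTU proteases had one in 5 of 10 genes (23.7 to 76.3%), ubiquitin C-terminal hydrolases in 1 of 5 (3.62 to 62.4%), and the JAMM proteases in 0 of 3 (0 to 56.1%). These intervals overlap, and the classes cannot be ranked.

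**Figure D1:**
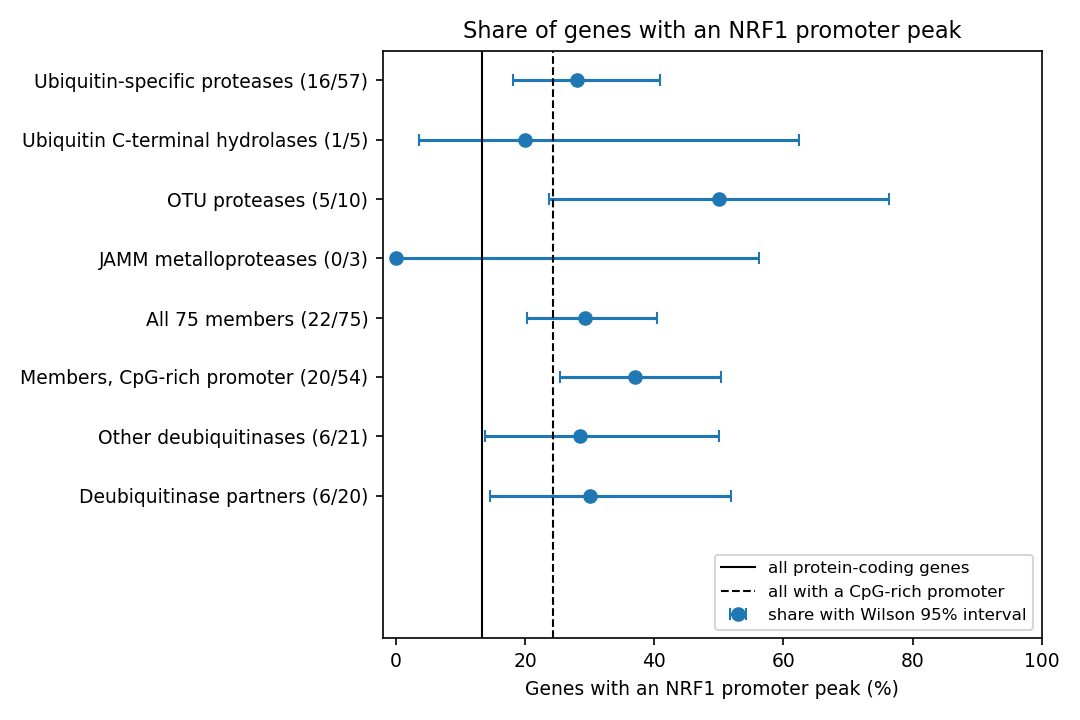
Share of genes with an NRF1 promoter peak (horizontal axis, %), by class of deubiquitinase and for 2 related lists, with Wilson 95% intervals as bars and the counts beside each name, where members are the 75 genes. The solid line is the share over all protein-coding genes and the dashed line that over genes with a CpG-rich promoter. The interval for all 75 genes, 20.2 to 40.4%, lies above the solid line. For the 54 genes with a CpG-rich promoter it is 25.4 to 50.4%, just above the dashed line, and neither difference was tested.

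NRF1 promoter peaks were mostly at CpG-rich promoters, which 2518 of the 2804 genes with a peak had, so the count was also taken among those. A promoter was called CpG-rich where GC content was at least 55% and the ratio of observed to expected CpG at least 0.65 within 200 bp of a start. This held for 54 of the 75 genes, or 72.0%, and for 49.4% of all protein-coding genes. Among the 54 genes 20 had a promoter peak, or 37.0% (25.4 to 50.4%), against 24.3% of all genes with such a promoter. Among the other 21 genes 2 had a peak, or 9.52% (2.65 to 28.9%), against 2.69% of all genes of that kind. These were Usp21 and Usp45, with ratios of 0.627 and 0.605, just under the limit. The difference was not tested, and the lower bound fell to 25.2%, under a background of 25.4%, when CpG richness was taken within 500 bp of a start (18 of 48 genes).

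Fold enrichment, the summit signal divided by the control background, ran from 4.57 to 29.3 over the 23 peaks. The median was 9.42, with quartiles of 6.86 and 10.5, and the median over all 2607 promoter peaks was 11.1, with quartiles of 7.90 and 16.4. Of the 23 peaks 5 lay above that overall median, and 2, at Usp37 and Usp38, were in the top 10% of all promoter peaks. The other 18 lay below the overall median. The median width of 285 bp was close to the 296 bp over all promoter peaks.

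**Figure D2:**
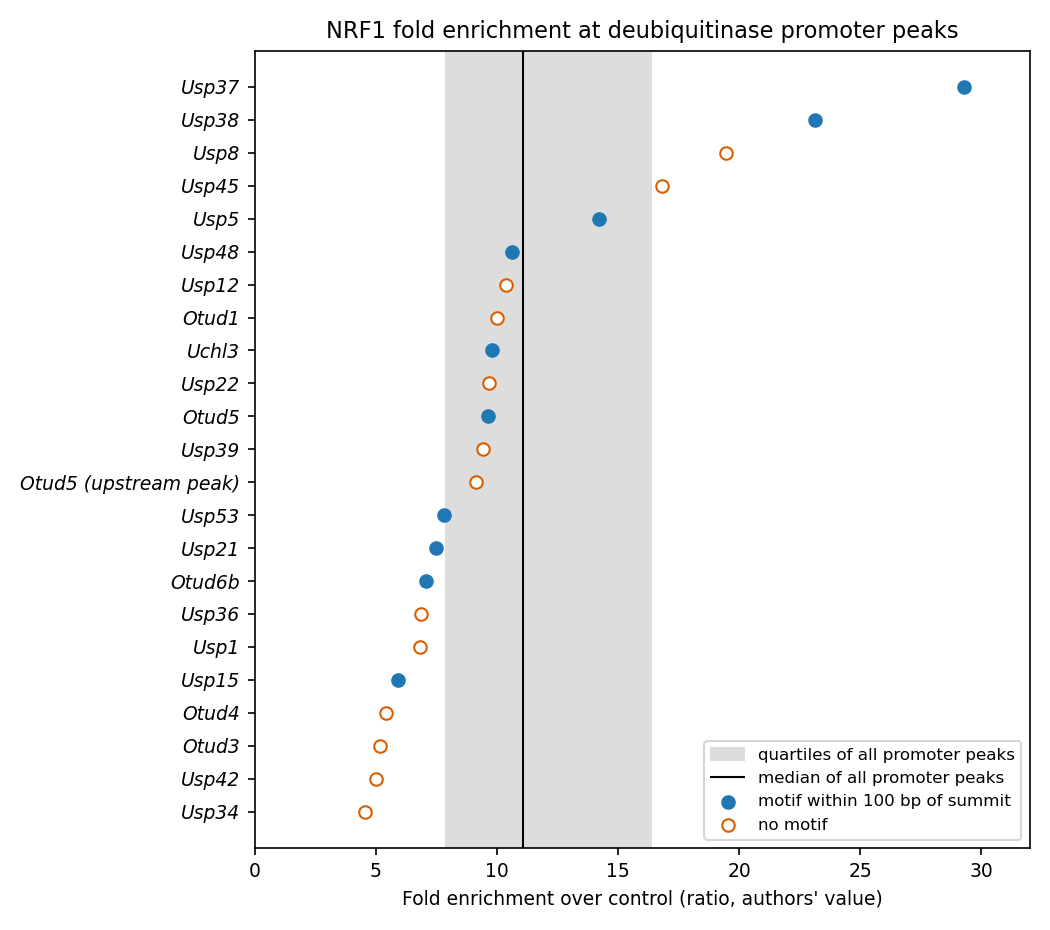
Fold enrichment (horizontal axis, ratio over control) of the 23 NRF1 promoter peaks at deubiquitinase genes, 1 point a peak, ordered by value. Filled points have a motif copy and open points have none, and 18 points lie left of the median of all promoter peaks (11.1, vertical line, with the quartiles shaded).

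Among ubiquitin-specific proteases the strongest peak was at Usp37, whose product acts on cell cycle regulators. It spanned chr1:74505785-74506289 with a fold enrichment of 29.3, rank 72 among the 2607 promoter peaks. Its summit lay 165 bp before a start of Usp37, at -165 bp, and also in the promoter of Cnot9, a subunit of the deadenylase complex CCR4-NOT, on the other strand. The start nearest to that summit belongs to another gene. The copy nearest to the summit was 68.5 bp away, farther than at any other deubiquitinase, and the peak as a whole held 2 copies. Usp38 followed at chr8:81014963-81015247 with a fold enrichment of 23.1, a summit at -186 bp and a copy centred 8.5 bp from it.

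Usp8 takes ubiquitin off receptors on endosomes and so steers them away from degradation. Its peak, at chr2:126706990-126707348, had a fold enrichment of 19.5 with the summit at -79 bp and no motif copy. Usp45, linked to repair of DNA, also lacked a copy at a fold enrichment of 16.8, with its summit 11 bp after the start, in the first exon. Usp5 disassembles free ubiquitin chains and thereby returns ubiquitin to the pool. The Usp5 peak at chr6:124829275-124829605 had a fold enrichment of 14.2 and was the only one of the 23 with the exact palindrome, which was centred 10.5 bp before the start. It also lay in the promoter of Cdca3, a cell cycle gene on the other strand.

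The remaining 11 peaks of this class lay under the overall median. Usp48 had a fold enrichment of 10.6, Usp12 of 10.4 and Usp22 of 9.69. Usp12 works with the WD-repeat proteins Wdr48 and Wdr20, and Usp22 is the subunit of the coactivator complex SAGA that takes ubiquitin off histones. Usp39, a splicing protein that lacks the catalytic residues, had 9.42, and Usp53 had 7.83. Lower values were found for Usp21 (7.47), the nucleolar enzyme Usp36 (6.88) and Usp1 (6.85), which acts on monoubiquitinated repair proteins. The lowest of the class were Usp15 (5.90), an enzyme that opposes parkin-dependent mitophagy, Usp42 (5.01) and Usp34 (4.57). At Usp42 the −log10 q was 4.53, the lowest of the 23 peaks, where Usp37 had 112.5.

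OTU proteases carried 6 peaks, none above the overall median. Otud1, at chr2:19657446-19657673, had a fold enrichment of 10.0. Otud5, a regulator of interferon signalling on chromosome X, had a peak at chrX:7841644-7841913 with a fold enrichment of 9.65 and a motif copy, and another at chrX:7841037-7841247 with 9.14 and none. The summits of this pair were at -96 and -704 bp, so the second is the farthest from a start of all 23. Otud6b reached 7.09, Otud4 5.40 and Otud3 5.20. Only Otud5 and Otud6b among these genes had a motif copy.

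The single peak in a ubiquitin C-terminal hydrolase gene was at Uchl3, which trims small adducts from the end of ubiquitin. It spanned chr14:101653553-101654093, had a fold enrichment of 9.81, and held a copy 18.5 bp from a summit at -254 bp. No promoter peak was called at Bap1, the nuclear hydrolase that acts on histone H2A, nor at Uchl1, Uchl4 and Uchl5. The JAMM genes Stambp, Stambpl1 and Brcc3, whose products favour a type of ubiquitin chain used in sorting and DNA repair, had none either.

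Summits were placed mostly just before the start. Of the 23, 19 lay before it and 4 at or after it, and the median was -96 bp with quartiles of -186.5 and -30.5 bp. Measured to the nearest known start of any gene, the median was -79 bp, against -50 bp over all promoter peaks. By that measure 19 of the 23 lay before the start, or 82.6% (62.9 to 93.0%) against 78.8% of all promoter peaks, and 13 lay within 100 bp of it, or 56.5% (36.8 to 74.4%) against 71.2%. Both intervals hold the overall share. The 4 at or after the start were those of Usp45, Usp53, Usp39 and Usp12, between 11 and 22 bp into the first exon. The summits farthest from a start were those of the second Otud5 peak at -704 bp, Otud4 at -480 bp and Usp34 at -385 bp, with fold enrichments of 9.14, 5.40 and 4.57.

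**Figure D3:**
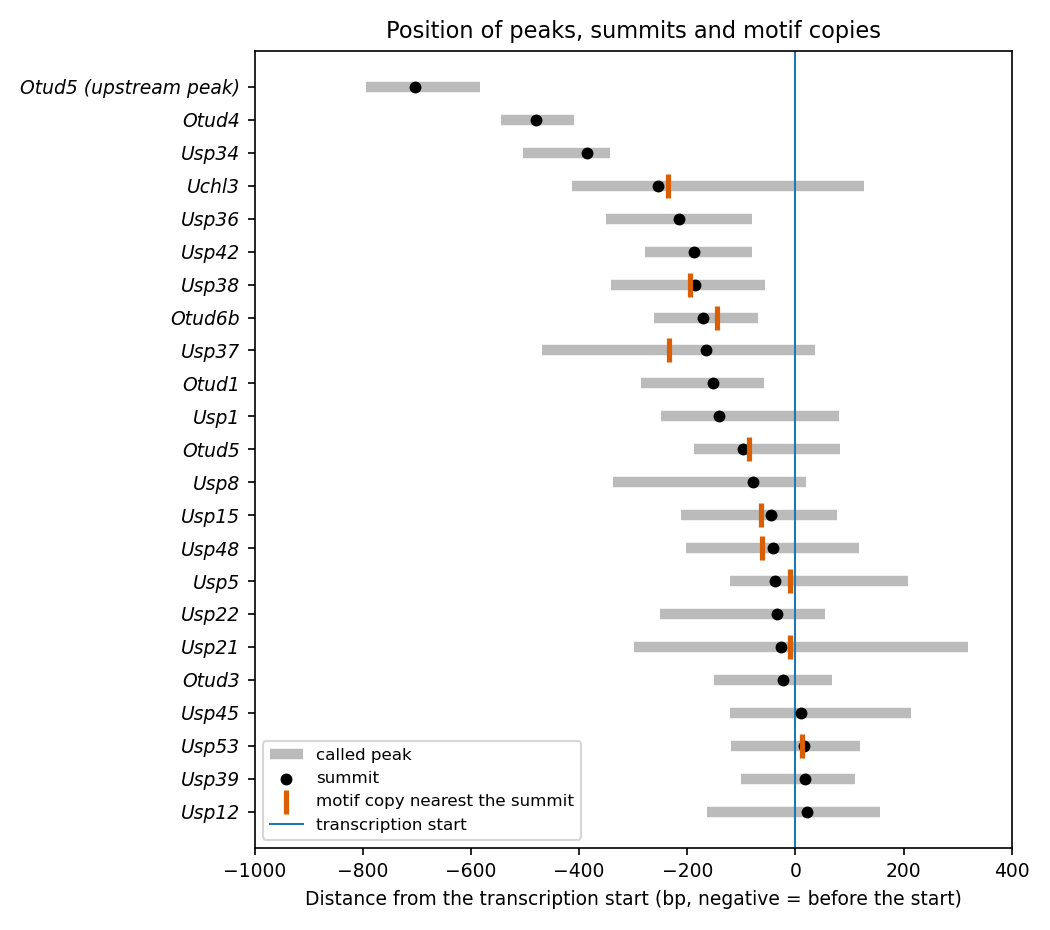
Called peaks (grey bars), summits (black points) and the motif copy nearest to the summit (orange ticks) at 23 deubiquitinase promoter peaks, against distance from the transcription start in bp. The summits sit between -704 and 22 bp, and the 10 ticks lie at most 68.5 bp from their summits.

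The motif was present at 10 of the 23 peaks, or 43.5% (25.6 to 63.2%), against 65.9% of all promoter peaks. The upper bound for the deubiquitinase peaks was just under the overall share, and the difference was not tested. The exact palindrome was at 1 of 23 peaks (0.772 to 20.99%) and at 10.9% of all promoter peaks. No deubiquitinase peak held 2 or more copies within 100 bp of the summit (0 to 14.3%), and 11.9% of all promoter peaks did. Both intervals hold the overall share. Copies lay close to the summit, with a median distance of 18.5 bp, and 8 of the 10 were within 25 bp. Over all promoter peaks with the motif that median was 12.5 bp.

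The copies fell into few forms. GCGCAGGCGC, or GCGCCTGCGC on the other strand, was the nearest copy at Usp38, Usp21, Otud6b and Usp15, and at 32.7% of all promoter peaks with the motif. Counted from 1 at the 5′ end of the palindrome on the strand of the gene, this is T6G at Usp21, Otud6b and Usp15 and A5C at Usp38. Usp37 and Usp53 shared GCGCATGCTC, with G9T, a form at 5.93% of promoter peaks with the motif. Usp48 and Uchl3 shared a form that reads ACGCATGCGC on 1 strand, G1A at Usp48 and C10T at Uchl3, seen at 8.90%. Otud5 had GTGCATGCGC, with C2T, which was found at only 13 of the 1719 promoter peaks with the motif.

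Fold enrichment overlapped between peaks with and without a copy. The 10 with a copy ran from 5.90 to 29.3, with a median of 9.73, and the 13 without from 4.57 to 19.5, with a median of 9.14. Over all promoter peaks these medians were 12.9 and 8.58. The deubiquitinase peaks with a copy thus had a lower median than all promoter peaks with one, and 3 of the 10, at Usp37, Usp38 and Usp5, lay above 12.9.

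The 13 peaks without a copy were searched for looser matches. A match with 2 mismatches was within 100 bp of the summit at 9 of them, or 69.2%, and at 73.5% of all promoter peaks without a copy. At Usp8 it was ACGCATGCTC, with G1A and G9T, centred 30.5 bp from the summit. Otud1 had GCGCATGTCC, with C8T and G9C, at 7.5 bp. Usp39 and Otud3 both had GCGCCGGCGC, with A5C and T6G. At Usp1, Otud4, Usp42 and Usp34 the best match had 3 mismatches. The arm of the palindrome, GCGCA or TGCGC on the other strand, was found at 12 of the 13 peaks and at 88.9% of all promoter peaks without a copy.

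Motif and occupancy were then compared gene by gene, whether or not a peak was called. Searched over the 250 bp before and the 50 bp after each coding start, the motif with at most 1 mismatch was found in 10 of the 75 genes, or 13.3%, and in 9.64% of all protein-coding genes. All 10 of these deubiquitinase genes had a promoter peak (Wilson interval 72.2 to 100%), against 81.5% of all genes with the motif there. They were the same 10 genes whose peak held a copy. Of the 65 genes without the motif near a start, 12 had a peak, or 18.5% (10.9 to 29.6%), against 6.08% over all such genes. These 2 sets were not matched for CpG content, and the difference was not tested. A CpG-rich promoter was found for 72.0% of the 75 genes and 49.4% of all protein-coding genes. None of the 53 genes without a promoter peak held the motif in this window. A match with 2 mismatches was the best one in 17 of the 75 genes, of which 9 had a peak, and 21.6% of all genes of that kind had one.

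**Figure D4:**
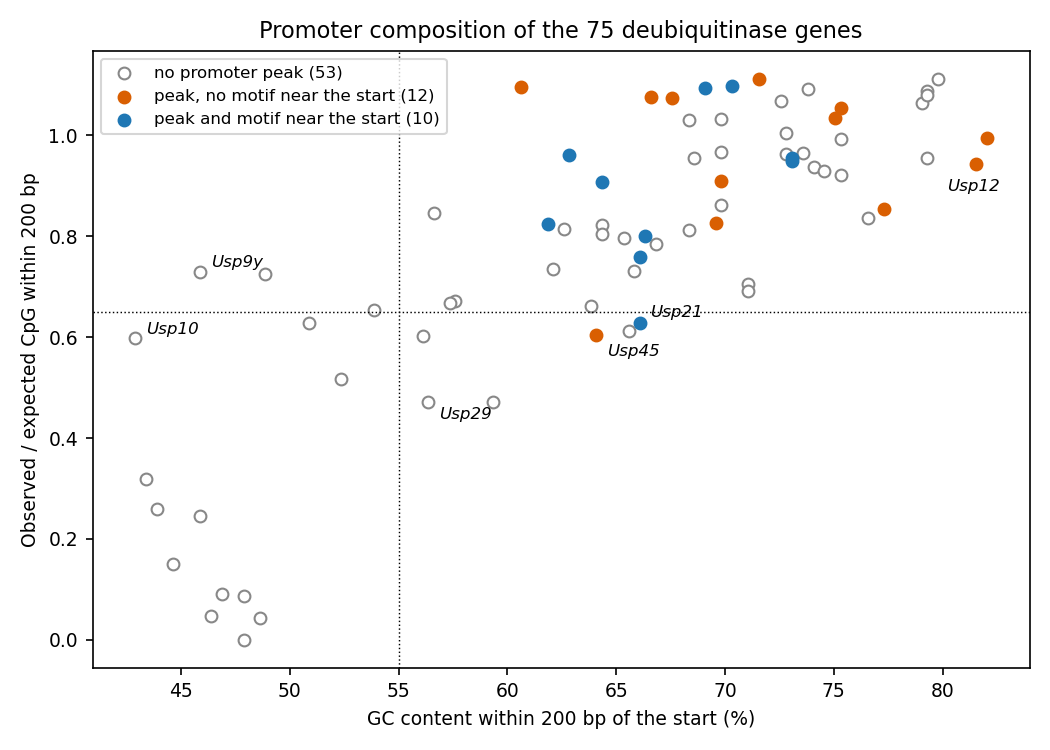
GC content (horizontal axis, %) and ratio of observed to expected CpG (vertical axis) within 200 bp of the start for the 75 deubiquitinase genes, at the start with the highest ratio where a gene has several. Blue points have a peak and the motif near the start, orange points a peak alone and open points no peak, and dotted lines mark the limits of a CpG-rich promoter, which exclude 2 of the genes with a peak.

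The composition of promoters with and without a peak overlapped. The ratio of observed to expected CpG had a median of 0.952 in the 22 genes with a peak, from 0.605 to 1.11, and of 0.785 in the 53 without, from 0 to 1.11. The lowest GC content of a gene with a peak was 60.6%, and 21 of the 53 genes without a peak lay under it. The 5 Usp17l genes, a cluster of recent copies on chromosome 7, had ratios of 0.0913 or less. Of 9 genes on chromosomes X and Y, Otud5 had a promoter peak, a share of 11.1% (1.99 to 43.5%) against 6.64% of all genes on these chromosomes. A start of another gene on the opposite strand within 1000 bp upstream was annotated for 10 of the 75 genes. Of these 10, 2 had a peak, Usp5 and Usp37, a share of 20.0% (5.67 to 51.0%). Over all genes, 31.2% of those with such a neighbour had a peak, a share that this interval holds.

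Of the genes without a promoter peak, 34 had a CpG-rich promoter, and well known enzymes were among them. Usp7, which stabilises Mdm2 and p53, had a CpG ratio of 1.08 and its nearest summit 91415 bp from the start. At Usp14, the deubiquitinase that docks on the proteasome, that distance was 152082 bp. Usp19, studied in wasting muscle, had its nearest summit 26801 bp from the start, and Usp2, an enzyme of the circadian clock, 149373 bp. Usp30, which sits on the mitochondrial outer membrane and opposes mitophagy, had it 106440 bp away. For Cyld, an inhibitor of NF-kappa-B signalling, it was 558792 bp. Of the 53 genes, 50 had no summit within 10000 bp of a start. The median distance to the nearest summit was 171297 bp in these 53 genes and 186893 bp over all genes without a peak. Since read depth is unknown, absence of a called peak does not show absence of NRF1.

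The other 3 genes had a summit within 5000 bp. At Usp10, which acts on p53, the peak at chr8:119910546-119910949 had a fold enrichment of 18.1 and 2 motif copies near the summit, where no deubiquitinase promoter peak had more than 1. Its summit was 418 bp after the only known coding start, in an exon outside the coding sequence, and it fell in a promoter when predicted RefSeq transcripts or GENCODE starts were used. GC content around the known start was only 42.9%. At Usp29, the peak at chr7:6729339-6729495 had a fold enrichment of 10.7, a motif copy and a summit at -1166 bp, just beyond the promoter window. The Usp20 peak lay in an intron, 3192 bp after the start, with a fold enrichment of 6.87 and no copy.

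Some relatives were compared, chosen after their values were seen. Usp15 had a peak, and its relatives Usp4 and Usp11 had their nearest summits 41725 and 15464 bp away. Usp12 had one and its relative Usp46 none, with the nearest summit at 420681 bp. Usp36 and Usp42 both had one. In Usp25 and Usp28, Otud7a and Otud7b, and Stambp and Stambpl1 both genes of the pair lacked a peak.

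The remaining genes without a promoter peak are named for completeness. In the class of ubiquitin-specific proteases they were Usp3, Usp6nl, Usp9x, Usp9y, Usp13, Usp16, Usp17la, Usp17lb, Usp17lc, Usp17ld, Usp17le, Usp18, Usp24, Usp26, Usp27x, Usp31, Usp32, Usp33, Usp35, Usp40, Usp43, Usp44, Usp47, Usp49, Usp50, Usp51 and Usp54, which with those above make 41. In the OTU class they were Otub1, Otub2 and Otud6a.

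Other deubiquitinases, outside the symbols above, had a promoter peak in 6 of 21 genes, or 28.6% (13.8 to 49.96%), against 13.4% of all protein-coding genes. Without Uspl1, which acts on SUMO and not on ubiquitin, it was 5 of 20 (11.2 to 46.9%). The other listed genes, among them the translation factor subunit Eif3h, were kept without a check that their products cleave ubiquitin. Among those with a CpG-rich promoter it was 5 of 17, or 29.4% (13.3 to 53.1%), an interval that holds the 24.3% of all such genes. Otulin, which cuts linear ubiquitin chains, had a fold enrichment of 27.8 and no motif copy. Vcpip1, a partner of the segregase VCP, had 22.2, also without a copy. The SUMO protease Uspl1 (18.2), the translation factor subunit Eif3h (16.0) and the proteasome lid protease Psmd14 (12.9) each had a copy. Josd2 had 5.72 and no copy. The summits of these 6 lay between -200 and 70 bp, and 5 of the 6 fold enrichments were above the overall median of 11.1, where 5 of the 23 peaks chosen by symbol were.

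Partner proteins that activate or anchor deubiquitinases had a promoter peak in 6 of 20 genes (14.5 to 51.9%), against the same 13.4%. All but 1 of the 20 had a CpG-rich promoter, and of these 19 genes 6 had a peak, or 31.6% (15.4 to 53.99%), an interval that again holds 24.3%. Wdr20, which activates Usp12 and Usp46, had a fold enrichment of 23.6 and 2 motif copies, while Wdr48, which also activates Usp1, had its nearest summit 232782 bp away. G3bp2, a relative of the Usp10 partner G3bp1, had 20.5, and G3bp1 had no peak. In the complexes of Brcc3, Uimc1 had 10.3 and Abraxas1 4.92, and Babam1, Babam2 and Abraxas2 had no peak. Asxl2, a cofactor of Bap1, had 6.97 and Spata2, which recruits Cyld, 6.26, where neither Bap1 nor Cyld had a peak. Asxl1 and Asxl3 had none. Atxn7, Atxn7l3 and Eny2, which form the SAGA module with Usp22, had none, nor did the Usp8 partners Stam and Stam2, the Uchl5 partner Adrm1 and the Usp7 partner Gmps.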

How the data were processed

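ChIP-seq of NRF1 on wild-type mouse skeletal muscle was represented by 1 deposited peak list. By the study's methods, the authors aligned reads to mm10 with Bowtie, kept unique hits, removed blacklisted regions (of a human build, as named) and ran MACS2 with input DNA as control. Those methods name broad calling, whereas the list has the narrow-peak layout with summits. The study's reporting form gives a q-value limit and a fold range for its NRF1 peaks, but counts fewer peaks than this list holds. The exact settings behind this list are thus not certain. Duplicate removal is given in the peak names, and pooling is not stated. The deposited columns hold a fold enrichment (ratio of summit signal to control background), q-values on the −log10 scale, a peak score and p-values (neither used for results) and the summit as a distance from the peak start. All peaks were kept, including 7 with a q-value above 0.01, the limit in the study's methods. Read depth is unknown, and unique mapping and the control's local depth affect fold enrichment and which sites pass.

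Starts were those of coding RefSeq transcripts (NM accessions) on GRCm38, the assembly of mm10, whose chromosome lengths hold all peaks. Ranks and overall values are over the 2607 peaks in promoters of any known transcript. Sequences were read with pysam 0.24.0 under Python 3.11.15, and Wilson intervals came from scipy 1.17.1. Motif search and promoter placement were tested on simulated data. Members and lists were chosen with earlier results of these data known. Every gene with a promoter peak is described, as are those with a summit within 5000 bp, and further genes without a peak are given as examples chosen after their values were seen. A further 4 listed symbols without a coding start were not analysed here. No test was run, since there is 1 list and 1 group.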

Additional observations from a re-analysis of the deposited data

How the results depend on the processing

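Of 42 alternative values for 7 results, 34 stayed within the limits set, which were 1.5 times for counts and for the median fold enrichment and the Wilson interval for shares. The number of deubiquitinase genes with a promoter peak ran from 21 to 24. Usp42 was lost at a q-value of at most 1e-05, Usp34 at a fold enrichment of at least 5, and Usp37 when only the gene with the nearest start was counted. Usp10 was gained in 4 settings, among them GENCODE M21 starts (23 genes), an alternative chosen after seeing the data, and Usp29 in the widest window. The median fold enrichment ran from 9.28 to 9.65. The share of all genes with a promoter peak moved to 14.7% with a window of 2000 bp before to 500 bp after a start, 14.1% with 500 bp either side, 14.1% with any overlap, 12.8% at a q-value of at most 1e-05, 12.7% at a fold enrichment of at least 5 and 13.9% with predicted transcripts. The share of deubiquitinase peaks with the motif was 4.35% with no mismatch and 82.6% with at most 2, against 10.9% and 91.0% of all promoter peaks. These shifts follow from the wider or narrower definitions. With CpG richness taken within 500 bp, 18 of 48 genes had a peak (37.5%, 25.2 to 51.6%) against 25.4% of all such genes, and with the looser limits 22 of 60 (36.7%, 25.6 to 49.3%) against 23.1%. Leaving out a replicate was not possible with 1 peak list. No paired analysis was possible because there is a single peak list and no value per library.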

Other observations

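Peaks were also called just past the far end of 2 deubiquitinase genes. Beyond the end of Otud5 a peak at chrX:7880031-7880312 had a fold enrichment of 10.2. It lay 38141 bp after the nearer of the 2 Otud5 starts, which is not the start used for the Otud5 promoter peaks. Beyond the end of Usp3 a peak at chr9:66511548-66512055, 81225 bp after the start, had a fold enrichment of 15.4. Neither lay in an annotated promoter or held a motif copy, and the best match had 3 mismatches at the former and 2 at the latter.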
